A study of Mus musculus with 3 samples.

Results

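Narrow YY1 peaks called in both sorts of mouse cardiac progenitor cells are described here. They are the replicate 2 intervals on chromosomes 1 to 19 that were below 150 bp wide and met a replicate 1 interval at 1 bp or more. There were 971 of them, out of 115109 intervals in the replicate 2 list. The score played no part in the choice, but the overlap and the widths did, and all of these come from the same peak calls, so scores and widths are given below as description, without tests.

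The series holds 3 samples of one cell type, 2 chromatin immunoprecipitations with an anti-YY1 antibody from Santa Cruz and 1 input without antibody. All came from C57BL/6 mouse embryonic stem cells that were differentiated as embryoid bodies, free-floating aggregates, up to day 6. The cells carried a GFP reporter driven by Nkx2.5, a homeodomain factor of early heart cells, and reporter-positive cells were purified by flow cytometry, separately for each ChIP sample. The stem cells had been kept on mouse embryonic fibroblasts. The cell identity rests on the reporter; interval lists hold no expression values, so it was not checked against markers. Libraries had been amplified for 25 PCR cycles and gel-selected at about 250 to 400 bp, adaptors included. All members are narrower than that range because the rule limits their width to below 150 bp. The question was where YY1 sits in the genome of these cells. The input was not analysed here, and read depth behind each interval is unknown.

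YY1 is a zinc-finger transcription factor that recognises a short sequence with an ATGG core and can activate or repress genes, depending on the partners it recruits. Chromatin-remodelling and Polycomb proteins are among its known partners, and it is found at many promoters and enhancers. In ChIP-seq, fragments pulled down with such a factor pile up around the bound site, and a peak caller reports the stretch where they do. An interval is therefore a place where fragments were enriched, wider or narrower than the site itself. No sequence or gene is given for the intervals, since no mm9 genome or annotation was used here.

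The members were a small part of the narrow calls of replicate 2 and a large part of the narrowest calls of replicate 1. Of 103006 autosomal replicate 2 intervals below 150 bp, 0.943% were called in replicate 1 as well, and these are the 971 members by definition. At any width it was 1411 of 108971 autosomal intervals, or 1.29%. Seen from replicate 1, 42.4% of its 3438 autosomal intervals overlapped one of replicate 2, and 970 of the 3438 met a member. The replicate 2 list was 31.2 times as long, so a place called in only one of them cannot be taken as unoccupied in the other sort. Another 39 narrow shared intervals lay outside chromosomes 1 to 19 and are not included.

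The highest-ranked member lay at chr4:147698856-147698977 (mm9, counted from 1, as called in replicate 2). It scored 394.42 in replicate 1 and 2492.6 in replicate 2, where the score is the peak caller's own and ranks intervals within a list. Each rank was expressed as a percentage of its list, and the 20 members with the lowest mean percentage over both lists are named here. Scores of these 20 ran from 170.17 to 394.42 in replicate 1 and from 579.95 to 3100 in replicate 2.

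The member at chr10:26763339-26763479 had the highest replicate 2 score of all members, 3100, and scored 322.82 in replicate 1. That replicate 2 score was tied: 102 intervals of the list had exactly 3100 and 6 had more, so it does not order them. The member at chr3:23525938-23526010 scored 307.07 and 1155.38, in replicate 1 and replicate 2 in that order. That at chr4:30717552-30717606 scored 384.99 and 918.16. Its width was 55 bp in replicate 2 and 51 bp in replicate 1, below the median of 59 bp of the narrow intervals called only in replicate 2. The interval at chr19:18288607-18288738 scored 244.55 and 1247.22, and another replicate 2 interval lay 10 bp away. That at chr17:57359200-57359348 scored 205.15 and 3050.82. The next, at chr13:17417563-17417632, scored 313.58 and 835.79. These 7 intervals ranked within the best 1.95% of replicate 1 and the best 1.17% of replicate 2.

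Further members of the 20 were at chr9:73500064-73500128, which scored 225.68 and then 993.44, and at chr11:75734487-75734577, with 216.0 and 1092.03. The one at chr16:13045531-13045630 scored 196.31 and 2035.48. The one at chr14:121864650-121864798 scored 177.1 and 2350.13. For this pair the replicate 2 ranks were 0.195% and 0.149%, and the replicate 1 ranks 2.22% and 3.06%, counted from the top of the list. The others were at chr4:130137232-130137288, chr18:36167550-36167606, chr7:121489490-121489566, chr2:85039995-85040124, chr2:98144474-98144542, chr16:59754985-59755039, chr13:28938890-28938949, chr19:48022308-48022383 and chr1:66394198-66394287. The 20 were spread over 14 chromosomes, 13 of them were below 100 bp wide in replicate 2, and 14 were below 60 bp wide in replicate 1. Another replicate 2 interval lay within 1 kb of 7 of them.

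Across all members the calls were short in both sorts. In replicate 2 the median member was 76 bp wide, with quartiles at 61 and 101 bp. Partners in replicate 1 had a median of 59 bp, quartiles at 48 and 78 bp, and a lowest width of 37 bp. In 969 of the 971 the partner was below 150 bp too. The exceptions were chr12:102057131-102057217 (partner 191 bp wide) and chr2:116649609-116649699 (partner 156 bp wide). Each member had exactly 1 replicate 1 partner. A single replicate 1 interval, at chr1:4248790-4248891, met more than 1 member: it bridged those at chr1:4248716-4248818 and chr1:4248851-4248946, which were 32 bp apart.

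Both sorts placed these calls at nearly the same point. The centres of the paired intervals differed by a median of 7 bp (95% interval of the median 6 to 7.5 bp). They lay within 10 bp of each other in 616 members, or 63.4% (95% exact binomial interval 60.3 to 66.5%), and within 25 bp in 91.0% (89.1 to 92.8%). Overlap was required, which bounds how far apart centres can be; the median distance was 9.30% of the largest that the widths of each pair allowed. The largest distance, 114 bp, belonged to the chr12 member with the 191 bp partner. Wide shared intervals, which are 440 intervals of 150 bp or more chosen by the same overlap, had a median distance of 45.2 bp, or 23.5% of the largest allowed. Width was used to divide these groups, so this contrast is a description.

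The replicate 2 interval was usually the longer, and it extended beyond the partner about equally on both sides. It was wider in 800 members (82.4%, 79.8 to 84.7%) and contained the whole replicate 1 interval in 641 (66.0%, 62.9 to 69.0%). The start in replicate 2 lay a median of 6 bp before that in replicate 1, with an interquartile range of the offset from -14 to -1 bp. The end lay a median of 7 bp after it, with an interquartile range from 1 to 17 bp. With the offsets nearly symmetric, the median signed difference of the centres was 0.5 bp.

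**Figure D1:**
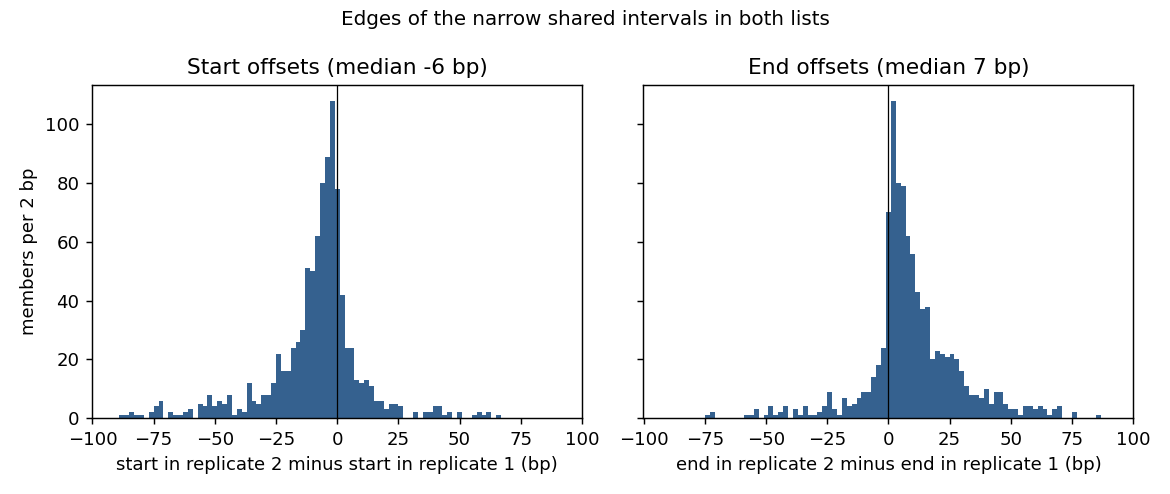
Offsets of interval starts (left) and ends (right) between the lists, in bp, replicate 2 minus replicate 1, for the 971 members; bars count members per 2 bp, and a single start offset of 166 bp, beyond the axis, is not drawn. Starts are shifted to negative values (median -6 bp) and ends to positive ones (median 7 bp).

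A start or an end lay within 5 bp in both lists for 562 members (57.9%, 54.7 to 61.0%), and both edges did in 131 (13.5%, 11.4 to 15.8%). With replicate 2 cut to the length of replicate 1 by score, 48.8% of the 248 members left had such an edge. Start and end were identical in 3 members, at chr15:59276594-59276660, at chr2:50184806-50184871 and at chr1:92141738-92141833. Their scores were 84.52, 82.13 and 67.29 in replicate 1 and 173.81, 147.31 and 70.99 in replicate 2, in the same order. The best rank among these identically placed calls was 30.1% of the way down a list. In another 7 members 1 edge was identical and the other shifted by 1 bp, among them chr6:129256919-129256966 and chr13:44753326-44753369, the best-ranked of the 7.

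Scores of the members covered nearly the whole range of replicate 2 and the lower part of that of replicate 1. In replicate 2 the median was 285 (interquartile range 152.64 to 515.03, from 50.25 to 3100). The 102035 narrow autosomal intervals called only in replicate 2 had a median of 128.02. In replicate 1 the members' partners had a median of 94.55 (77.33 to 116.09, from 50.8 to 394.42), against 75.08 for the 1979 autosomal replicate 1 intervals without any overlap. Wide shared intervals had a higher median in replicate 2, 986, and a lower one in replicate 1, 78.24. Thus the medians of narrow and wide shared intervals stood in opposite order in the 2 lists, which is described here without a test. In the best 10% of replicate 1 the shares were close, with 17.8% of members and 17.0% of wide shared intervals. In its best 1% the order was the reverse of that of the replicate 1 medians, with 0.515% of members and 6.14% of wide shared intervals.

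Members differed widely in how strongly they were called in each sort. In replicate 2, 463 members were in the best 10% of the list and 69 in the best 1%. In replicate 1, 173 were in the best 10% and 5 in the best 1%. In both lists together, 102 were in the best 10% (10.5%, 8.65 to 12.6%), and 67 were in the lower 50% of both (6.90%, 5.39 to 8.68%). Of the 440 wide shared intervals, 16.8% (13.4 to 20.6%) were in the best 10% of both lists and 0% in the lower 50% of both. The numbers that unrelated ranks would give were not computed, so these counts are no measure of agreement. Strong calls in one sort were paired with weak ones in the other as well: 29 members were in the best 10% of replicate 1 and the lower 50% of replicate 2, and 13 were in the best 1% of replicate 2 and the lower 50% of replicate 1.

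Over the 971 pairs the scores ran together only loosely, with a Spearman's rho of 0.16, given as a description, since positions are not replicates and all share the same 2 libraries. Among members, scores and widths were related in opposite ways, with a rho of -0.55 in replicate 1 and 0.36 in replicate 2. The negative relation in replicate 1 was also present over all its narrow autosomal intervals, with a rho of -0.468 (3240 intervals). The positive relation in replicate 2 was nearly absent over all its narrow autosomal intervals, with a rho of 0.035 (103006 intervals). Partners 37 to 49 bp wide had a median replicate 1 score of 116.09, and those 80 to 109 bp wide one of 75.08. Within classes of partner width, rho between the scores of the 2 lists was 0.27 at 37 to 49 bp (293 members), 0.34 at 50 to 59 bp (196), 0.27 at 60 to 79 bp (250), 0.23 at 80 to 109 bp (204) and 0.41 at 110 to 191 bp (28). Within 11 classes of replicate 2 width it varied from 0.07 at 80 to 89 bp (104 members) to 0.45 at 50 to 59 bp (147), and it was also below the value over all members at 70 to 79 bp (0.08) and at 130 to 139 bp (0.09). Given both widths, the partial rank correlation was 0.29. Scores were coarse in replicate 1, where 774 members had the score of another member and 57 shared the commonest value, 116.09.

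**Figure D2:**
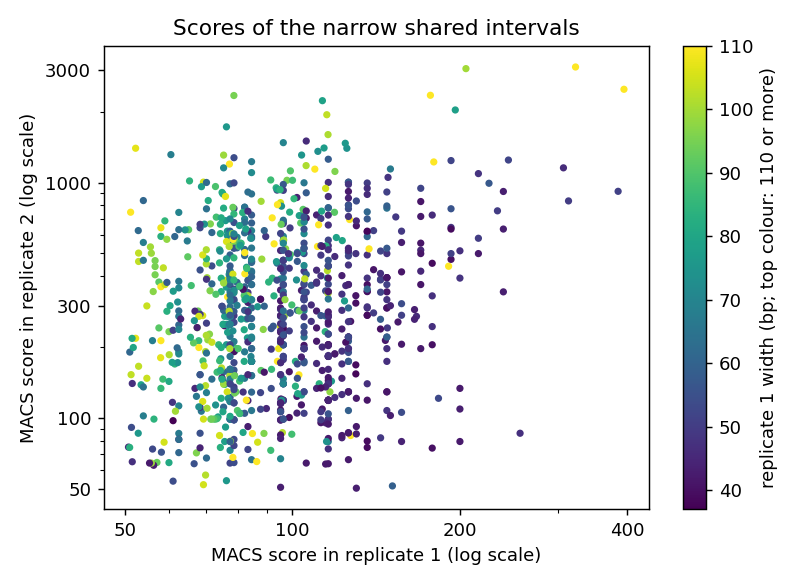
Score in replicate 1 (horizontal) against score in replicate 2 (vertical), both on log scales, one point per member, coloured by the width of the replicate 1 interval in bp. The points form a broad cloud (Spearman's rho 0.16), partners of 37 to 49 bp have a median replicate 1 score of 116.09 and lie mostly right of centre, and columns of points mark replicate 1 scores that many members share.

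Wider and higher-scoring narrow calls of replicate 2 had a replicate 1 counterpart more often. This follows the quantities that define the members or come from the same calls, and is given as a description. By width it went from 0.279% (0.215 to 0.356%) below 50 bp to 4.60% (3.35 to 6.15%) at 140 to 149 bp. By score it stayed between 0.242% and 0.459% over the lower 7 deciles, then reached 0.637%, 1.15% and 5.24% (4.81 to 5.70%) in the upper 3. The highest decile, with scores from 268.64, held 520 of the 971 members.

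**Figure D3:**
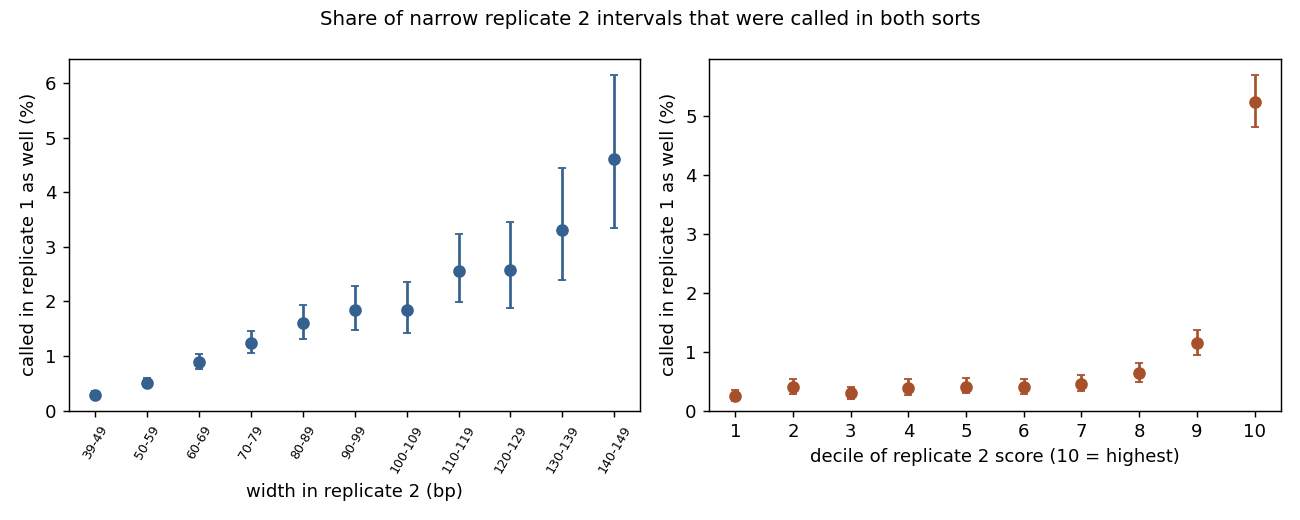
Share of narrow autosomal replicate 2 intervals that were called in replicate 1 as well (percent), by width in bp (left) and by decile of replicate 2 score (right); points are shares and bars 95% exact binomial intervals. The share reaches 4.60% in the widest class and 5.24% in the highest decile.

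From the side of replicate 1 the direction with width was the opposite. A member was met by 58.1% (53.7 to 62.5%) of its autosomal intervals 37 to 49 bp wide and by 57.1% (51.7 to 62.4%) of those 50 to 59 bp wide. At 60 to 79 bp the figure was 34.4% (30.9 to 38.0%), at 80 to 109 bp 14.1% (12.3 to 16.0%), and at 110 to 191 bp 8.75% (5.89 to 12.4%). The shortest calls of the shorter list were thus those most often found again as narrow calls. The width limit in replicate 2 takes part in this decline, so it is given as a description. Wide shared intervals, which the limit leaves out, had a median replicate 1 width of 97 bp, against 59 bp for members. The replicate 2 interval contained the partner in 83.3% of members with a partner of 37 to 49 bp, and in 46.6% of those with a partner of 80 to 109 bp. Centres were a median of 5.5 bp apart in the first class and 10 bp in the second. Widths bound both quantities: a wider partner is harder to contain below 150 bp and allows centres to lie farther apart.

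Members with higher replicate 2 scores were wider there and contained their partner more often, while the centres lay 6.0 to 8.75 bp apart in every quartile of score. From the lowest to the highest quartile of replicate 2 score, the median distance between centres was 8.75, 6.5, 6.0 and 6.5 bp. Over the same quartiles the replicate 2 interval contained the partner in 45.9%, 63.4%, 71.2% and 83.5% of members, and its median width was 66, 73, 79 and 95 bp.

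Shared intervals just inside and just outside the width limit had like scores, and centres that were farther apart outside it. The 43 shared intervals 140 to 149 bp wide had a median score of 82.52 in replicate 1, and the 26 intervals 150 to 159 bp wide one of 79.4. The medians in replicate 2 were 522.81 and 518.81. The median distance between centres was 15.5 bp inside (up to 49 bp) and 24.5 bp outside (up to 72 bp). Just inside, at 149 bp, were the members at chr17:57359200-57359348 and chr14:121864650-121864798, named above, and those at chr8:103482325-103482473, chr12:28424870-28425018 and chr1:184489188-184489336. Just outside were those at chr16:13950793-13950942, chr9:63140532-63140681, chr10:95077881-95078030 and chr3:29048829-29048978, at 150 bp, and chr4:104546367-104546517, at 151 bp. Scores in replicate 2 were 189.71 to 3050.82 for the 5 inside and 821.2 to 1646.15 for the 5 outside, so the ranges overlapped.

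Spacing along the chromosome was not used to choose the members. Another replicate 2 interval lay within 1 kb of 142 members, or 14.6% (12.5 to 17.0%), and of 15.4% (15.2 to 15.6%) of the narrow intervals called only in replicate 2. The share depends on the length of the list: among the 248 members left with replicate 2 cut to the length of replicate 1 by score it was 2.82%, and with the better-scoring 50% of either list 9.54%. In the lists as deposited the difference was -0.80 percentage points, with a 95% interval (Newcombe) of -2.89 to 1.57, so no difference beyond counting error was detected, and the counts allow one anywhere in that range. Within 10 kb it was 64.9% against 66.7%, a difference of -1.82 points (-4.89 to 1.13). Against the wide shared intervals, of which 21.6% (17.8 to 25.7%) had a neighbour within 1 kb, the members had fewer close neighbours, with a difference of -6.97 points (-11.5 to -2.67). Within 10 kb that difference was -8.75 points (-13.7 to -3.54). These intervals cover counting error only and treat neighbouring calls as independent. The wide shared intervals also had the higher replicate 2 scores, and the part of score in this difference was not tested.

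**Figure D4:**
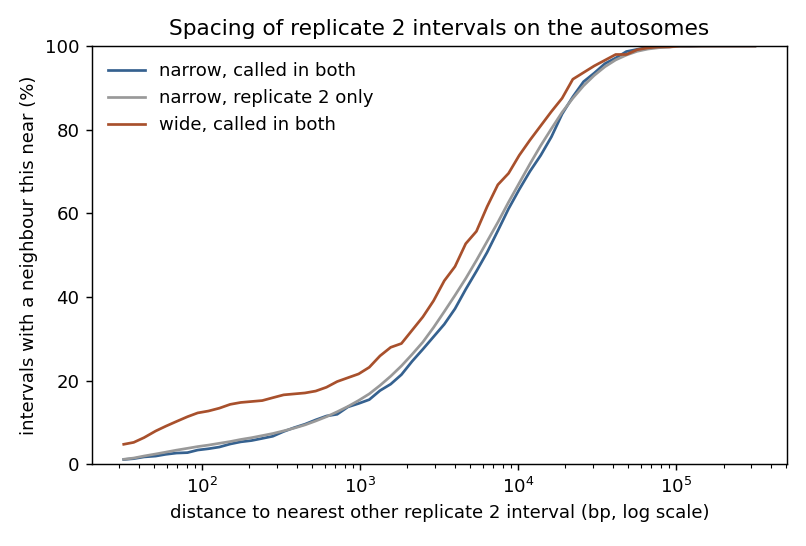
Cumulative percentage of autosomal replicate 2 intervals whose nearest other replicate 2 interval lies within the distance on the horizontal axis (bp, log scale), for members, narrow intervals called only in replicate 2, and wide shared intervals. Members run beside the other narrow intervals (64.9% and 66.7% within 10 kb), and the wide shared intervals lie above both (73.6%).

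Members were scattered over all 19 autosomes. They numbered from 21 on chromosome 19 to 85 on chromosome 1, or 0.324 to 0.497 per Mb, the lowest on chromosome 13 and the highest on chromosome 10. As a share of the narrow replicate 2 intervals of a chromosome they ranged from 0.757% (0.550 to 1.01%) on chromosome 8 to 1.13% (0.885 to 1.42%) on chromosome 4, and these intervals overlap. As a share of replicate 1 intervals they ranged from 21.3% (15.6 to 28.1%) on chromosome 13 to 34.8% (27.9 to 42.2%) on chromosome 10, where the intervals overlap as well.

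At 0.324 to 0.497 members per Mb, long distances between members follow from their number. The nearest other member was a median of 843378 bp away. For 18 members (1.85%, 1.10 to 2.91%) it lay within 10 kb, and for 86 (8.86%) within 100 kb. The spacing that this number of scattered places would give was not computed, so these distances are a description. Cut into bins of 1 Mb, the autosomes had 791 bins with a member, of which 641 held 1, 124 held 2, 22 held 3 and 4 held 4. No bin held more.

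The fullest bins were those of chr2:4000001-5000000, chr11:52000001-53000000, chr12:8000001-9000000 and chr14:122000001-123000000. On chromosome 2 the members began at 4057937, 4453284, 4851946 and 4855882, with replicate 2 scores of 241.69, 417.36, 196.93 and 249.81. Those on chromosome 11 began at 52412324, 52608687, 52691576 and 52749820 and scored 911.58, 442.25, 293.11 and 664.6. Replicate 1 scores in these bins were 67.51, 157.18, 170.17 and 77.33 on chromosome 2 and 83.26, 116.09, 136.38 and 68.31 on chromosome 11. The strongest replicate 2 call of the chromosome 11 bin was therefore not its strongest replicate 1 call. On chromosome 12 the members began at 8144691, 8449796, 8834324 and 8842470, and their replicate 2 scores ran from 98.79 to 776.49. On chromosome 14 they began at 122035565, 122214384, 122265533 and 122785029, with replicate 2 scores from 76.23 to 535.42. Within these bins the closest members were 3870 bp apart on chromosome 2, 8055 bp on chromosome 12, 51074 bp on chromosome 14 and 58162 bp on chromosome 11.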

How the data were processed

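Each ChIP sample has one list of intervals with 5 fields: chromosome, start, end, name and score. The authors made the lists with MACS run in Galaxy, per the file headers, and the score is the value MACS attached to each peak, as deposited. Coordinates are those of mm9 (per the submitters' processing notes). For the aligner, the MACS settings, the score's formula and the role of the input in calling, details were not given in the sources used here. Peaks were taken as called per sample. The RefSeq tables at hand belong to another build, so the planned counts of motifs, gene starts, GC content and repeats were not run.

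Starts were read as counted from 0 and are printed from 1. Each member was paired with the replicate 1 interval it overlapped most. Shares have 95% exact (Clopper-Pearson) intervals, medians order-statistic intervals, and differences of shares Newcombe intervals; all cover counting error only. No test over samples was possible with 1 list per sort. Intervals were named by rule: the 20 members with the lowest mean of rank divided by list length, the 5 with the most nearly identical edges (ties by mean rank, which kept 2 of 7 tied members), the 5 on either side of the width limit, those sharing a partner, and the fullest 1 Mb bins. The members, rules and lists were chosen with earlier results of these data known. The partners of 150 bp or more were named after their values were seen. The pairing was tested on simulated data. Software was pandas 2.3.3, SciPy 1.17.1 and NumPy 2.4.6 under Python 3.11.15, with matplotlib 3.10.9 for figures.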

Additional observations from a re-analysis of the deposited data

How the results depend on the processing

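Of 50 recomputed values, 30 stayed within 1.5 times the count or within the 95% interval of the value as reported, 20 moved and 0 changed sign. Only the rank correlation could have changed sign, since counts, medians of score or distance, and shares cannot be negative. Taking the partner with the highest replicate 1 score could not alter the rank correlation, since each member had exactly 1 partner. An overlap of 50% of the shorter interval and a narrow partner moved none. With a width below 100 bp the median replicate 2 score was 246, the distance between centres 5.5 bp and the share with an edge within 5 bp 64.6%; below 200 bp the median replicate 2 score was 302. Keeping the better-scoring 50% of either list gave 566 members, a median score of 369 (replicate 2) or 105 (replicate 1), and a neighbour within 1 kb for 9.54%. With replicate 2 cut to the length of replicate 1, an alternative chosen after seeing the data, there were 248 members, with medians of 711 and 96.38, an edge within 5 bp in 48.8% and a neighbour in 2.82%. Both choices leave fewer and higher-scoring intervals by construction. A neighbour within 500 bp was found for 10.3%, a share that cannot exceed the one within 1 kb. The rank correlation of scores, 0.16, was 0.29 given both widths and 0.27, 0.34, 0.27, 0.23 and 0.41 within the classes of partner width, also chosen after seeing the data; the cause was not tested. No result could be recomputed without a replicate, since each compares both lists. No paired analysis was possible because the ChIP samples form 1 group and the input was not analysed here. Without read counts, a place missing from a list cannot be called unbound.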
